A study of Homo sapiens with 4 samples.

Results

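Cytotoxic lymphocytes kill target cells by releasing granules. Perforin opens pores in the target membrane, granzymes (serine proteases) enter and cleave proteins of the target, and accessory proteins of the granule load, store or move this cargo. The genes described here are the 5 human granzymes GZMA, GZMB, GZMH, GZMK and GZMM, the pore protein PRF1, the membrane-lytic peptide GNLY (granulysin), the cysteine protease CTSW (cathepsin W) and the granule membrane protein NKG7. They were picked by symbol in GENCODE 29, and all 9 were among the 28274 genes of the deposited table. The group was put together because of the low value of GZMM in the knockdown libraries, so the values of the 9 genes in that comparison are a description, and no p-value is given for any of them.

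The study sequenced RNA from a human cell line named J-gammal in its labels, with 2 FYB1 knockdown libraries and 2 control libraries. The knockdown libraries carry the genotype "FYB1 knockdown" and titles with the letters sh, and the controls carry the genotype "none", a source name without treatment and titles with the letters NC. The labels do not give the construct, whether both knockdown libraries carry the same one, or whether the controls carry any. Values are FPKM, reads scaled to exon length and to a library total, and the libraries held 16695281 to 20254482 reads. FYB1, the adaptor protein of T cell receptor and integrin signalling that was targeted, stood at 6.18 and 4.53 FPKM in knockdown libraries 1 and 2, against 17.6 and 20.1 FPKM in controls 1 and 2, and the groups did not overlap.

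The line showed T cell transcripts and next to none of NK cells. All 13 T cell markers on a list that holds CD3D, TRAC, LCK and TCF7 exceeded a mean of 1 FPKM, and their summed level was 1369.2 and 1619 FPKM in the knockdown libraries, against 1737 and 1640.3 FPKM in the controls. Of the 8 NK cell markers listed, 4 were analysed here (KLRD1, NCR1, FCGR3A and NCAM1). Their summed level was 0.251 and 0.229 FPKM in the knockdown libraries, against 0.307 and 0.322 FPKM in the controls, and 1, 0, 1 and 1 of the 4 were listed at 0 in knockdown libraries 1 and 2 and controls 1 and 2. Of 9 myeloid markers 7 were analysed here, none reached a mean of 1 FPKM, and their sum was 0.675 to 0.696 FPKM in the knockdown libraries, against 0.422 to 0.771 FPKM in the controls, with 1, 0, 2 and 3 of the 7 listed at 0 in the same order of libraries. Of 6 B cell markers CD79A, a subunit of the B cell receptor complex that is named after its values were seen, exceeded 1 FPKM, at 11.1 and 15.8 FPKM in the knockdown libraries, against 24.5 and 21.2 FPKM in the controls. In bulk RNA, fewer cells of a type and less RNA per cell cannot be told apart.

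Promoter windows are shown for the members that share a short word near their start. RefSeq promoter windows (build GRCh38.p14, 250 bases before to 50 bases after the start, written 5′ to 3′ on the strand of the gene) were available for 6 of the 9 members, GZMA, GZMB, GZMH, PRF1, GNLY and NKG7. The RUNX core TGTGGT and the E-box word CANNTG were searched on both strands. So were TTCNNNGAA, the word of STAT factors, and TGANTCA, that of AP-1. The search also took in TGACGTCA, the cyclic AMP response element, and AGGTGTGA, the word of T-box factors. The last were AGATAA, bound by factors of the GATA3 family, and the promoter word TATAAA. The RUNX core, or its reverse complement ACCACA, was in 4 of the 6 windows and in 13.1% of all 35116 windows of 300 bases. The capitals mark it in each window.
GZMA, chr5:55102396-55102695, plus strand: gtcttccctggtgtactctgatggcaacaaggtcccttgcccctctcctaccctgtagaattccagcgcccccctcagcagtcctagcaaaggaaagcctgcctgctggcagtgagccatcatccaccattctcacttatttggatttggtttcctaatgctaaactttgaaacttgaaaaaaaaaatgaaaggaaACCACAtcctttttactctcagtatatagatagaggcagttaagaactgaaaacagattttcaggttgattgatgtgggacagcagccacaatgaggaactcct
PRF1, chr10:70602692-70602991, minus strand: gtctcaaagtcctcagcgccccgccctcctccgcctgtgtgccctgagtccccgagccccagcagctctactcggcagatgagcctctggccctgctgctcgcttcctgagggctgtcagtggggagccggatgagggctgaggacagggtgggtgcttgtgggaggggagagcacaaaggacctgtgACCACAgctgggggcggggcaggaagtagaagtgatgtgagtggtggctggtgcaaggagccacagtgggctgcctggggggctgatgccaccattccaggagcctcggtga
GNLY, chr2:85694108-85694407, plus strand: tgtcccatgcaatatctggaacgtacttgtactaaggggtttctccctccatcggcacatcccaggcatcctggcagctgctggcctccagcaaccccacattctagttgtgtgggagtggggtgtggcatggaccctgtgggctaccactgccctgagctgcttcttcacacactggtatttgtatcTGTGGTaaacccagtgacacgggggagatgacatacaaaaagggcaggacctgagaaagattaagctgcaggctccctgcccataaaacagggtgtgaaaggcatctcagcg
GZMB, chr14:24634141-24634440, minus strand: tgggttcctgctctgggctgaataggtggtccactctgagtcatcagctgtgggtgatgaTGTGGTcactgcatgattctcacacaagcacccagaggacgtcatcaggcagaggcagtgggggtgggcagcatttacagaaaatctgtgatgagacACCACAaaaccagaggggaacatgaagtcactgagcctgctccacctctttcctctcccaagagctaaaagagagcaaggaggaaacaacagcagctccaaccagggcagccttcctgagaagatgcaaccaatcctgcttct
With the start counted as 0, the first letter of the word lay at -54 in GZMA, at -62 in PRF1, at -62 in GNLY, and at -190 and -93 in GZMB. The windows of GZMH and NKG7 did not hold it. An E-box was found in 5 of the 6 windows (not in that of GZMA) and in 68.7% of all windows, the AP-1 word in that of GZMB (7.71% of all windows), the GATA3 family word in that of GZMH (10.3% of all windows), and the other 4 words in none of the 6. A match is a run of letters and not a shown binding site. The RUNX core was picked for marking out of all the words searched, and enrichment in the group was not tested. No window was available for GZMM, GZMK or CTSW.

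The granzymes went in different directions. GZMM, a granzyme that prefers to cut after methionine and leucine (chromosome 19, 544034 to 549924, plus strand, hg38), had 4.13 and 5.12 FPKM in knockdown libraries 1 and 2, against 12.8 and 12.0 FPKM in controls 1 and 2. Both knockdown libraries were below both controls, on 72 and 99 reads against 201 and 190. The ratio of means, knockdown over control, was 0.374, and the log2 fold change of FPKM + 1 was -1.25 ± 0.12 (SE), knockdown minus control.

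GZMA, the tryptase among the granzymes, which cuts after arginine and lysine (chromosome 5, 55102648 to 55110252, plus strand), was by far the most abundant member. It had 108 and 129 FPKM in the knockdown libraries, against 200.3 and 174 FPKM in the controls, without overlap. The ratio of means was 0.632 and the log2 fold change -0.66 ± 0.16. Under quantile normalization, which gives all libraries the same distribution of values, the log2 fold change of GZMA was -0.30.

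GZMH, a chymotrypsin-like granzyme (chromosome 14, 24606480 to 24609699, minus strand), had 3.99 and 4.77 FPKM in the knockdown libraries, against 3.03 and 3.01 FPKM in the controls. It is the 1 granzyme above 1 FPKM that was higher in both knockdown libraries than in both controls, on 70 and 93 reads against 48 and 48, with a ratio of means of 1.45 and a log2 fold change of 0.42 ± 0.12. The log2 fold change was 0.23 with a pseudocount of 5. GZMM stood at 1.04 and 1.07 times the FPKM of GZMH in the knockdown libraries, against 4.21 and 3.98 times in the controls.

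GZMB, the aspartate-specific granzyme that activates caspases, and GZMK, a second tryptase, were near the limit of these libraries. GZMB had 10 and 11 reads in the knockdown libraries, against 6 and 7 reads in the controls (0.384 and 0.381 FPKM against 0.255 and 0.295 FPKM). Over the group, 21 reads carry an exact 95% Poisson interval of 13.0 to 32.1 in the knockdown and 13 reads one of 6.92 to 22.2 in the controls, and these intervals, which cover counting error only, overlap. GZMK had 16 and 10 reads in the knockdown libraries, against 7 and 9 reads in the controls, and 47.7% of its exon bases are shared with a gene on the other strand, AC034238.1, so that its reads are uncertain, since the sources used here do not state the use of strand.

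Among the lytic proteins, PRF1 (chromosome 10, 70597348 to 70602775, minus strand) had 15.0 and 16.7 FPKM in the knockdown libraries, against 14.7 and 14.1 FPKM in the controls. The groups did not overlap, but the log2 fold change was 0.13 ± 0.10, which is close to its standard error. Leaving out knockdown library 2 gave 0.06, and leaving out knockdown library 1 gave 0.20. GNLY had 5 and 5 reads in the knockdown libraries, against 4 and 9 reads in the controls, and at this depth a difference was not detectable.

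CTSW, a papain-like protease of cytotoxic lymphocytes (chromosome 11, 65879809 to 65883741, plus strand), had 18.4 and 22.3 FPKM in the knockdown libraries, against 41.4 and 38.7 FPKM in the controls. The groups did not overlap, on 582 and 786 reads against 1186 and 1116, with a ratio of means of 0.508 and a log2 fold change of -0.95 ± 0.13. NKG7, a granule membrane protein needed for degranulation in mice (chromosome 19, 51371606 to 51372715, minus strand), had 9.46 and 10.4 FPKM in the knockdown libraries, against 12.5 and 10.1 FPKM in the controls. These values overlapped (log2 fold change -0.17 ± 0.13), and without control 2 and without control 1 the log2 fold change was -0.31 and -0.03.

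**Figure D1:**
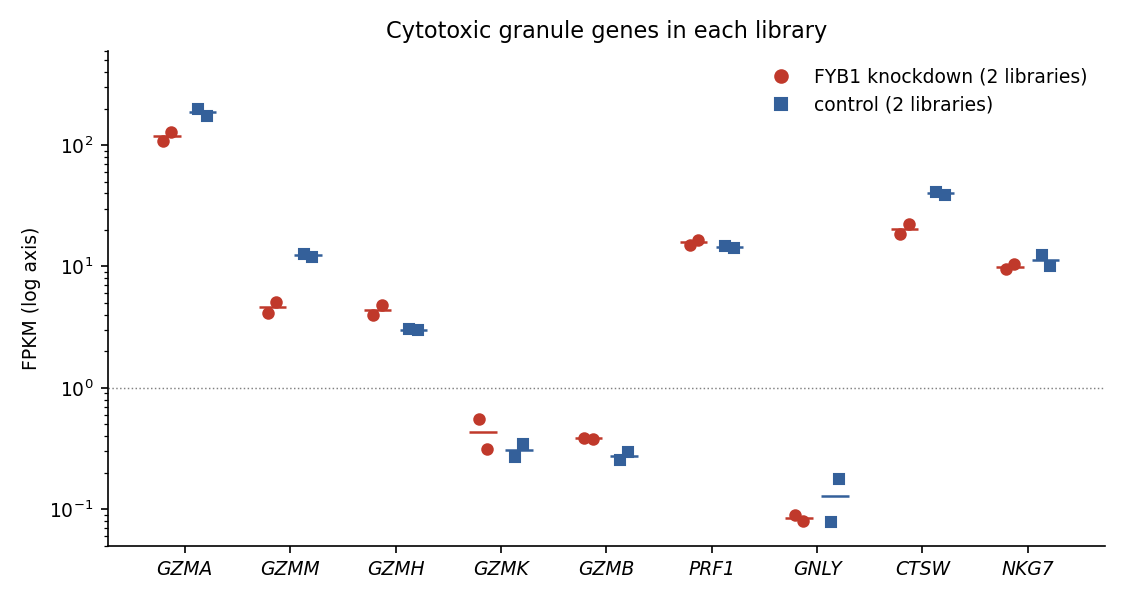
FPKM on a log axis for each of the 9 genes, with 1 point per library (circles, FYB1 knockdown; squares, control), bars at the mean of the 2 libraries and a dotted line at 1 FPKM. GZMM, GZMA and CTSW lie lower in both knockdown libraries than in both controls. GZMH lies higher, as does PRF1 by a small margin, and NKG7 overlaps. GZMK, GZMB and GNLY lie below 1 FPKM in all 4 libraries.

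The order of levels changed at 1 place. In the knockdown libraries it was GZMA (mean 118 FPKM), CTSW (20.3), PRF1 (15.9), NKG7 (9.92), GZMM (4.62), GZMH (4.38), GZMK (0.432), GZMB (0.382) and GNLY (0.0845 FPKM). In the controls it was GZMA (187 FPKM), CTSW (40.1), PRF1 (14.4), GZMM (12.4), NKG7 (11.3), GZMH (3.02), GZMK (0.305), GZMB (0.275) and GNLY (0.127 FPKM). Neighbours whose libraries overlapped were GZMM with GZMH and GZMK with GZMB in the knockdown group, and GZMM with NKG7 and GZMK with GZMB in the controls. The summed FPKM of the 9 genes was 160.1 and 189 in the knockdown libraries, against 285 and 253 in the controls, and GZMA supplied 67.5% and 68.1% of it in the knockdown libraries, against 70.2% and 68.9% in the controls.

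A fit across the whole table puts these values beside all other genes. The main fit was limma-trend on log2(FPKM + 1) over 13172 genes (mean FPKM of 1 or more), with Benjamini-Hochberg adjustment and a threshold of 0.05, and limma-voom on the recovered reads was run beside it. GZMA, GZMH, GZMM, PRF1, CTSW and NKG7 entered these fits, and GZMB, GZMK and GNLY were below the minimum. Limma-trend called 1 of the 6, GZMM, where 0.205% of all tested genes were called (0.137% lower and 0.0683% higher), and limma-voom called GZMM, GZMA and CTSW, all lower, where 7.74% of all tested genes were called (5.80% lower and 1.94% higher). GZMM, GZMA and CTSW were below both controls in both knockdown libraries, as were 34.6% of tested genes, and GZMH and PRF1 were above, as were 26.0%; in either direction this held for 60.6% of tested genes. Since the comparison chose the genes, nothing is read from these counts. The median log2 fold change of the 6 was -0.41, and that of all tested genes -0.03. The limma-trend call of GZMM ended without either knockdown library, where no gene at all was called (2205 and 4841 genes at an unadjusted p under 0.05 without knockdown library 1 and 2). The limma-voom calls without knockdown library 1 were down to CTSW, and without control 1 to GZMM and CTSW.

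Exon length and base composition moved with the comparison. Over 10570 tested protein-coding genes the log2 fold change had a Spearman correlation of 0.45 with exon length and of -0.35 with GC share, across genes that share the same 4 libraries; over all 13172 tested genes it was 0.22 with exon length and -0.29 with GC share. The 9 genes are short (894 bases of exon for GZMA to 3051 for GNLY). With a smooth trend on both removed from each library, a setting added after the data were seen, the log2 fold change was -1.04 for GZMM, -0.73 for CTSW, -0.66 for GZMA, -0.01 for NKG7, 0.34 for PRF1 and 0.54 for GZMH. When each library was scaled by its summed reads, and not by the total the authors used, the median of all tested genes moved to 0.08 from -0.03, and none of the 6 changed direction (GZMM -1.14, CTSW -0.82, GZMA -0.52, NKG7 -0.04, PRF1 0.26 and GZMH 0.53).

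**Figure D2:**
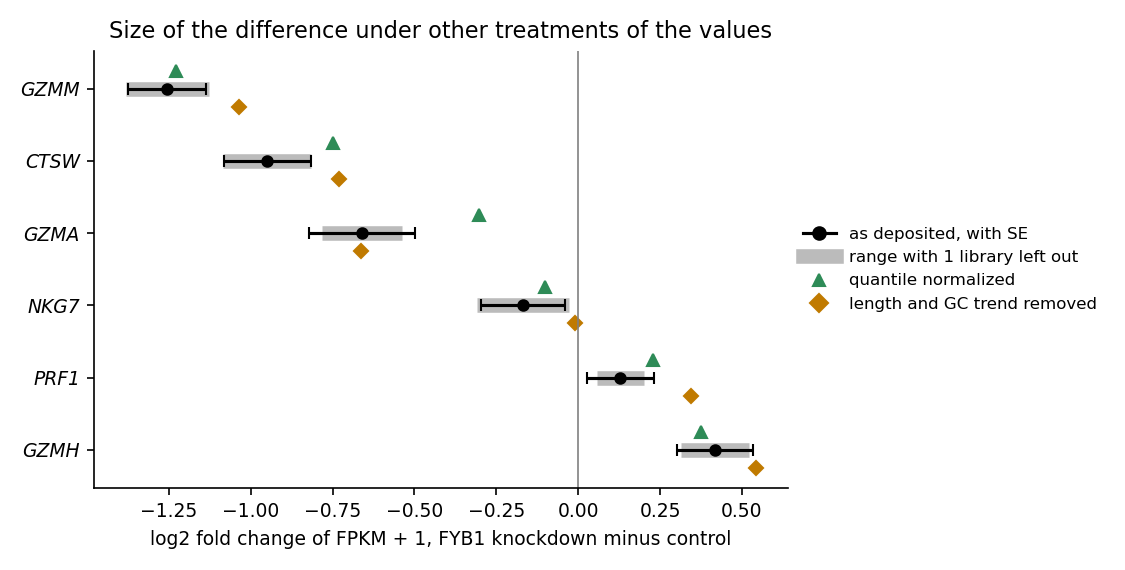
Log2 fold change of FPKM + 1 (knockdown minus control) for the 6 members with a mean of at least 1 FPKM. Black points are the values as deposited with their standard error, grey bars the range when 1 of the 4 libraries is left out, triangles quantile-normalized values and diamonds values with the length and GC trend removed. GZMM, CTSW and GZMA stay below 0 and GZMH and PRF1 above it in all of these, while NKG7 reaches -0.01.

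Granzyme genes lie at 3 loci, and neighbours at a locus had unlike values. On chromosome 14 GZMH and GZMB lie next to CTSG, the myeloid granule protease cathepsin G, and CMA1, the mast cell chymase. CTSG had 52.5 and 76.2 FPKM in the knockdown libraries, against 135 and 114 FPKM in the controls, far above its granzyme neighbours. It fell by 0.97 on the log2 scale (SE 0.17, limma-voom adjusted p = 0.0127; limma-trend adjusted p = 0.123), and the limma-voom call ended without knockdown library 1 (adjusted p = 0.0608). Under quantile normalization its log2 fold change was -0.63, against -0.96 as deposited. Its level was 13.1 and 16.0 times that of GZMH in the knockdown libraries, against 44.5 and 37.9 times in the controls. CMA1, on the far side of CTSG from GZMH, had 20 and 21 reads in the knockdown libraries, against 12 and 12 reads in the controls.

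On chromosome 5 GZMK and GZMA are adjacent, and the level of GZMA was 196 and 413 times that of GZMK in the knockdown libraries, against 748 and 510.5 times in the controls, ratios that rest on the few reads of GZMK. Of the other coding neighbours of GZMA, SNX18 had 2.76 and 2.90 FPKM in the knockdown libraries, against 3.07 and 2.88 FPKM in the controls. MCIDAS overlapped between groups as well, ESM1 and CDC20B were below 1 FPKM, and GPX8 was not analysed here. On chromosome 19 BSG (basigin), the coding gene after GZMM, had 86.3 and 116 FPKM in the knockdown libraries, against 142 and 140.0 FPKM in the controls, with a log2 fold change of -0.49 ± 0.18 (limma-voom adjusted p = 0.0708). CDC34, the coding gene before it, had a log2 fold change of -0.25 ± 0.17, POLRMT one of -0.40 ± 0.16 and HCN2 one of 0.22 ± 0.10, and neither fit called any of them.

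**Figure D3:**
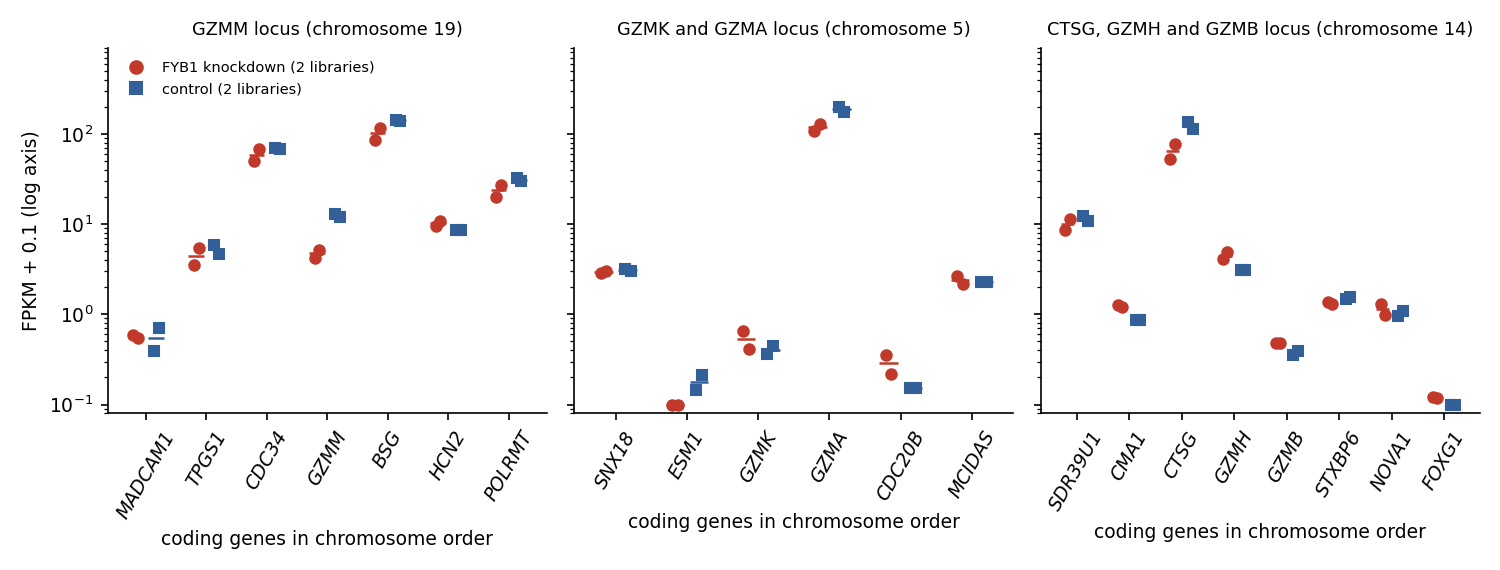
FPKM + 0.1 on a log axis for the coding genes around GZMM, GZMA and GZMH, in chromosome order, with 1 point per library (circles, FYB1 knockdown; squares, control) and bars at the means. CTSG and GZMA each stand out by level within their own locus, and BSG is the highest around GZMM. GZMM stands out by the gap between groups, and GZMH lies higher in the knockdown libraries beside CTSG, which lies lower.

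Genes that load and store the granule cargo included 3 that fell. Of 13 listed genes 12 were tested and 9 had lower means, as had 54.3% of all tested genes. Limma-voom called 3 lower and 0 higher, beside 5.80% lower and 1.94% higher over all tested genes, while limma-trend called 0, with 4 at an unadjusted p under 0.05 (list median -0.15). The list and those below were chosen with earlier results of these data known, so their counts and adjusted p-values are a description. SRGN (serglycin), the proteoglycan that holds granzymes and perforin in the granule, had 8.94 and 11.6 FPKM in the knockdown libraries, against 24.4 and 20.9 FPKM in the controls (limma-voom log2 fold change -1.14 ± 0.17, adjusted p = 0.00642). CALR, the chaperone calreticulin, which also binds perforin, had 273 and 339 FPKM in the knockdown libraries, against 708 and 674 FPKM in the controls (-1.19 ± 0.16, adjusted p = 0.00427), and its limma-trend log2 fold change of -1.18 was -0.67 under quantile normalization. CD63, a tetraspanin of the granule membrane, had 25.4 and 36.0 FPKM in the knockdown libraries, against 47.5 and 42.9 FPKM in the controls (limma-voom adjusted p = 0.0495). With all 4 libraries kept, limma-voom no longer called it when library totals were rescaled by a trimmed mean of log ratios (adjusted p = 0.0585). The same held with a minimum mean of 20 recovered reads (adjusted p = 0.0528). The CD63 call ended without knockdown library 1, control 1 or control 2 (adjusted p = 0.145, 0.358 and 0.0786), with a log2 fold change of -0.33 without knockdown library 1 against -0.58 in all 4 libraries, and that of SRGN without knockdown library 1 (adjusted p = 0.0608). CTSC, the protease that trims granzymes to their active form, had 5.38 and 5.71 FPKM in the knockdown libraries, against 6.80 and 6.29 FPKM in the controls, and was not called. It is named here after its values were seen.

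Among inhibitors and release machinery CST3 and HPS6 were called by limma-voom, both lower. This is 2 of 22 tested genes, beside 7.74% of all tested genes. Limma-trend, the main fit, called neither of them and no other gene of these lists. Of 7 listed inhibitors 3 were tested, and CST3 (cystatin C), which blocks cysteine cathepsins and not granzymes themselves, fell to 6.62 and 8.46 FPKM in the knockdown libraries, against 13.8 and 13.0 FPKM in the controls (limma-voom log2 fold change -0.84 ± 0.15, adjusted p = 0.0134). That call ended without knockdown library 1 and without control 1 (adjusted p = 0.0608 and 0.0584). SERPINB9, the inhibitor of granzyme B, named after its values were seen, had 2.46 and 2.49 FPKM in the knockdown libraries, against 1.84 and 1.91 FPKM in the controls, without a call. Of 23 genes of granule transport and release 19 were tested and 10 had lower means, as had 54.3% of all tested genes. Limma-voom called 1 of them, HPS6, a subunit of a complex that forms lysosome-related organelles (list median -0.02). HPS6 fell to 11.8 and 15.2 FPKM in the knockdown libraries, against 21.9 and 19.6 FPKM in the controls (-0.62 ± 0.15, adjusted p = 0.0324), and its limma-trend log2 fold change of -0.59 was -0.36 with the length and GC trend removed. The HPS6 call ended without knockdown library 1, control 1 or control 2 (adjusted p = 0.108, 0.306 and 0.0553).

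Among the transcription factors and receptors listed as regulators of the cytotoxic programme, ZBTB7B, KLF2 and KLF3 rose and STAT5A and BHLHE40 fell by limma-voom. The other 22 tested genes did not pass. Of 37 listed genes 27 were tested and 7 had lower means, as had 54.3% of all tested genes. The calls were 3 higher and 2 lower by limma-voom, beside 1.94% higher and 5.80% lower over all tested genes, and 1 higher and 1 lower by limma-trend, beside 0.0683% and 0.137% (list median 0.14). This list was chosen with earlier results of these data known, so its counts and adjusted p-values are a description. ZBTB7B, the factor of the CD4 lineage that holds down cytotoxic genes in mouse T cells, had 7.10 and 8.94 FPKM in the knockdown libraries, against 2.36 and 2.24 FPKM in the controls (limma-trend log2 fold change 1.44 ± 0.13, adjusted p = 0.0398; 0.83 at a pseudocount of 5). STAT5A, which carries interleukin-2 signals, had 7.93 and 7.99 FPKM in the knockdown libraries, against 17.0 and 17.4 FPKM in the controls (-1.02 ± 0.09, adjusted p = 0.0398). The limma-trend calls of both ended when knockdown library 1 or knockdown library 2 was left out (adjusted p = 0.203 and 0.0555 for each), while limma-voom called both with any 1 library left out.

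By limma-voom KLF2, a factor of quiescence and homing, rose to 53.4 and 58.6 FPKM in the knockdown libraries, against 27.8 and 28.2 FPKM in the controls (log2 fold change 1.00 ± 0.12, adjusted p = 0.00242). BHLHE40, a factor of effector T cells, fell to 6.25 and 7.95 FPKM in the knockdown libraries, against 15.9 and 17.7 FPKM in the controls (-1.24 ± 0.15, adjusted p = 0.00223). KLF3 rose to 3.20 and 3.40 FPKM in the knockdown libraries, against 2.00 and 2.00 FPKM in the controls (0.72 ± 0.15, adjusted p = 0.0268), a call that ended without knockdown library 1, control 1 or control 2 (adjusted p = 0.0691, 0.201 and 0.104). EOMES, a T-box factor of cytotoxic cells, named after its values were seen, had 4.41 and 5.28 FPKM in the knockdown libraries, against 4.78 and 4.06 FPKM in the controls, and these overlapped.

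Receptors and effectors of killer cells were mostly below 1 FPKM. Of 30 listed genes 24 were analysed here and 7 tested (list median 0.05). Limma-voom called 1 of them, CD226, an activating receptor, where 1.94% of all tested genes were called higher and 5.80% lower. CD226 rose to 7.61 and 5.74 FPKM in the knockdown libraries, against 3.50 and 3.73 FPKM in the controls (limma-voom log2 fold change 0.87 ± 0.15, adjusted p = 0.0122). Limma-trend did not call it (adjusted p = 0.107). Of 10 listed genes of myeloid and mast cell granules, mainly proteases, 3 were tested, and all 3 fell by limma-voom, beside 5.80% of all tested genes. They were CTSG, given above, CFD and PRSS57 (list median -0.96). Limma-trend called none of the 3 (adjusted p = 0.123 for CTSG, 0.155 for CFD and 0.117 for PRSS57). CFD, the complement protease factor D, had 10.5 and 17.4 FPKM in the knockdown libraries, against 26.3 and 22.1 FPKM in the controls (limma-voom adjusted p = 0.0388). PRSS57, a neutrophil serine protease, had 2.84 and 4.03 FPKM in the knockdown libraries, against 8.98 and 6.34 FPKM in the controls (limma-voom adjusted p = 0.0326). The limma-voom calls of CFD and PRSS57 ended without knockdown library 1 (adjusted p = 0.155 and 0.160) and without control 1 (adjusted p = 0.155 and 0.247), and without knockdown library 1 the log2 fold change of CFD was -0.47, against -0.83 in all 4 libraries. A further 6 genes of this list were below the minimum for testing, and 4 of them lay higher in both knockdown libraries than in both controls. Of tested genes 26.0% did so, and the share among genes below the minimum was not computed. More genes stood at 0 in controls 1 and 2 (4491 and 4217) than in knockdown libraries 1 and 2 (2809 and 3423), so nothing is read from this count. The 4 genes are named after their values were seen, apart from CMA1, given above. PRTN3, proteinase 3 of neutrophil granules, had 9 and 12 reads in the knockdown libraries, against 1 and 0 reads in the controls. TPSAB1, a mast cell tryptase, had 3 and 4 reads in the knockdown libraries, against 0 and 0 reads in the controls, and AZU1, the neutrophil protein azurocidin, had 9 and 11 reads in the knockdown libraries, against 8 and 5 reads in the controls. MPO, myeloperoxidase of the same myeloid granules, also named after its values were seen, was listed at 0 in 3 libraries and had 2 reads in knockdown library 2. TPSB2, another tryptase gene of this list and likewise named after its values were seen, went the other way from TPSAB1. It had 0 and 0 reads in the knockdown libraries, against 0 and 4 reads in controls 1 and 2.

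**Figure D4:**
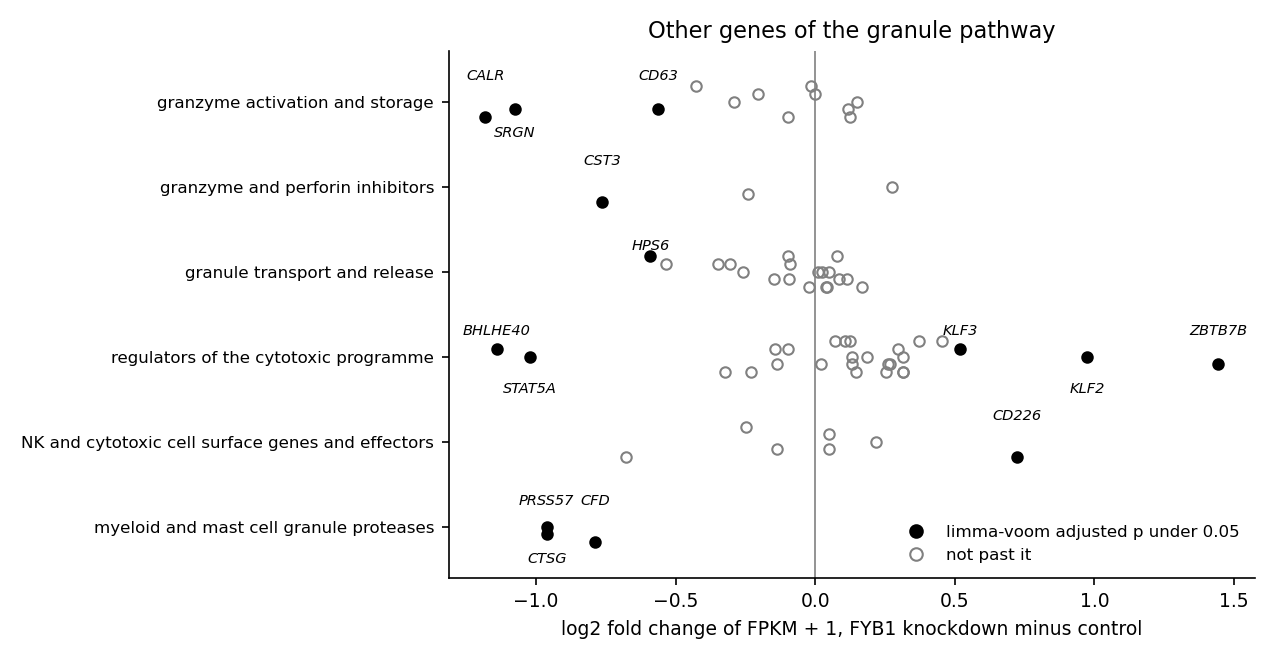
Limma-trend log2 fold change of FPKM + 1 (knockdown minus control) for each tested gene of 6 lists, 1 circle per gene, filled and named where the limma-voom adjusted p was under 0.05. Filled circles lie below 0 for storage, inhibitors, transport and myeloid proteases, above 0 for the surface receptor CD226, and on both sides of 0 among the regulators.

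The genes whose pattern over the 4 libraries was most like that of GZMM were found by the root mean square difference of log2(FPKM + 1), centred on each gene's mean, among 7742 other genes averaging 5 FPKM or more. The 5 nearest were CALR (0.0429), TIMM17A (0.0448), a subunit of mitochondrial protein import, BPNT1 (0.0456), a nucleotidase, TMED9 (0.0489), a cargo receptor of the early secretory pathway, and RAB20 (0.0491), a small GTPase. TMED9 had 15.3 and 20.1 FPKM in the knockdown libraries, against 46.0 and 41.4 FPKM in the controls, and RAB20 3.32 and 4.60 FPKM in the knockdown libraries, against 11.4 and 10.9 FPKM in the controls. No other member of the cytotoxic group was among the 5, but GZMH, GZMB, GZMK and GNLY were below the minimum and could not appear. With 4 libraries such likeness mainly reflects the size of the difference between groups.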

How the data were processed

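The authors deposited 1 table of FPKM values for 4 libraries, with no unit in its header. Per the submitters' processing notes the aligner was HISAT2 2.0.5 and the build hg38, and per the labels' protocols libraries were made with an Illumina TruSeq RNA kit. The sources used here do not state the counting program, the annotation or the use of strand. The unit was identified from the values: FPKM times merged exon length (GENCODE 29) gave whole multiples of a library's step for 100% of values above 0 (tolerance 0.001), and hence recovered reads per gene. All 28274 gene IDs matched GENCODE 29.

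The main fit was limma-trend (limma 3.58.1, R 4.3.3) on log2(FPKM + 1), with the group as the single term, a minimum mean of 1 FPKM and Benjamini-Hochberg adjustment; fold changes on this scale understate low genes. Limma-voom was run on recovered reads with the library totals that the authors used. Both fits were also run on simulated counts without the length and GC trends seen here. That run was a check of the code and does not bear on the spread of these libraries. Alternatives covered scaling, filters, pseudocounts, a replicate block and each library left out.

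The members, lists and rule for named genes were chosen with earlier results of these data known. Named are all members, FYB1, up to 6 called genes of each list (otherwise the 2 highest), coding neighbours of granzyme genes and the 5 genes most like GZMM; others are marked. The labels do not state separate cultures, so p-values cover the spread of these libraries alone, possibly technical. The 2 libraries of a group differed by more than counting noise (chi-square per degree of freedom of 16.9 for the knockdown and 5.71 for the controls).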

Additional observations from a re-analysis of the deposited data

How the results depend on the processing

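GZMM kept its direction under all 14 alternatives, with a log2 fold change of -1.41 at a pseudocount of 0.1, -0.85 at a pseudocount of 5, -1.04 with the length and GC trend removed, -1.42 by limma-voom, and -1.38 to -1.13 with 1 library left out. Limma-trend called 27 genes, 51 under quantile normalization, 76 when scaled by summed reads, 181 with a minimum mean of 5 FPKM, 0 with every gene above 0 (3938 at an unadjusted p under 0.05), 214 with the length and GC trend removed, and 0 to 406 with 1 library left out, against 1019 by limma-voom. Of the cytotoxic genes it called 1, but 2 with the summed reads, with the minimum of 5 FPKM and with the length and GC trend removed, 0 with every gene above 0, 3 by limma-voom and 0 to 2 with 1 library left out. The limma-voom count lay between 103 and 3876 with 1 library left out. With the number in the titles as a replicate block limma-trend called 781 genes, 2 of them cytotoxic. The numbers did not pair the libraries, with a correlation of -0.21 between the groups' deviations. Over genes averaging 5 FPKM or more that correlation was -0.39. The crossed pairing, added after seeing the data, gave 1910 genes, 4 of them cytotoxic, by limma-trend and 4011 by limma-voom. At a pseudocount of 5 the limma-trend log2 fold change was 0.43 for CD226, 0.25 for KLF3 and -0.58 for PRSS57, against 0.72, 0.52 and -0.96 at a pseudocount of 1, and under quantile normalization it was -0.33 for CD63, against -0.56. Depth limits GZMB, GZMK and GNLY, at 4 to 16 reads per library.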

Other observations

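Among the listed genes too low to be tested are genes that most cells use, named here after their values were seen. CDC42, a small GTPase of granule polarization, stood at 0.317 and 0.244 FPKM in the knockdown libraries, against 0.234 and 0.281 FPKM in the controls, and 59.4% of its exon bases are shared with other annotated genes. SERPINB6, an intracellular protease inhibitor with no shared exon bases, had 2 and 1 reads in the knockdown libraries, against 3 and 0 reads in the controls.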
